A study of Mus musculus with 6 samples.

Results

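The 10 MHC class I presentation genes examined here were taken by symbol from a table of 32371 mouse genes: *H2-K1*, *H2-D1*, *B2m*, *Tap1*, *Tap2*, *Tapbp*, *Psmb8*, *Psmb9*, *Psmb10* and *Nlrc5*. All 10 were found, and all 10 were among the 18138 genes that passed the filter on low counts. The RNA-Seq compared overexpression of GFP with that of Ezh2-Y726D, in which the histone methyltransferase Ezh2 has lost its catalytic activity, in 3 libraries each. All mice were adult C57BL/6J, and all received AAV2 by intravitreal injection and, 2 weeks later, an optic nerve crush (ONC). Retinal cells were collected 3 days after the ONC and sorted as viable CD90.2-positive cells, so that the groups differed by the gene carried in the AAV2 vector. CD90.2 is the product of *Thy1*, which retinal ganglion cells (RGCs) carry and T cells carry as well. The sources used here do not state the promoter in the vectors or how many mice contributed to a library. P values therefore measure the spread between these libraries, which may in part be technical.

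MHC class I molecules show peptides from inside a cell to CD8-positive T cells. Proteasomes cut proteins into peptides, the TAP transporter carries the peptides into the endoplasmic reticulum, and tapasin helps to load them onto a heavy chain paired with β2-microglobulin. Interferons raise most of these genes, in part through Irf1 and Nlrc5. Neurons are known for low class I levels at rest, whereas microglia, macrophages, lymphocytes and endothelial cells carry more.

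The labels call the cells RGCs, and the RGC markers were present, but so were markers of other retinal cells. Levels are in CPM, read counts relative to the TMM-scaled size of the library. Per kb of exonic length, the median of 12 RGC markers was 5.37 to 6.20 CPM in the 6 libraries, that of 5 rod markers 49.3 to 52.7 CPM and that of 6 Müller glia markers 88.3 to 93.8 CPM. The values below are thus those of a mixed cell population. Total counts were 9333244 to 22370285 in the GFP libraries and 18215734 to 23782520 in the Ezh2-Y726D libraries. The rRNA gene CT010467.1 made up 50.9% and 52.2% of GFP replicates 2 and 3 but 2.55% to 16.1% of the other 4 libraries, so that GFP replicates 2 and 3 were the least precise for other genes. *Ezh2* itself measured 22.7, 23.9 and 26.4 CPM with GFP against 65.2, 65.6 and 65.2 CPM with Ezh2-Y726D, which fits their labels.

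Promoter windows from RefSeq were found for 8 of the 10 genes, all but *Tap2* and *Nlrc5*. The windows run from 250 bases before to 50 bases after the annotated start site in GRCm38.p6. They were searched on both strands for 4 short motifs: AANNGAAA, the core bound by interferon regulatory factors (IRF core), TGACG, the core of the X2 box, CCAAT, the core of the Y box, and GGGGATTCC, a κB element. The X2 and Y boxes belong to the module through which Nlrc5 acts on class I genes together with the RFX, CREB/ATF and NF-Y factors. The stretches of *H2-K1*, *H2-D1* and *B2m* are shown because each held the first 3 motifs, and that of *Tap1* because it is shared with *Psmb9*. Each line gives the 200 bases before the start site, 5′ to 3′ on the strand of the gene, with the matches to the motifs, in either orientation, in capitals. None of the matches overlap. The stretches lie on chr17:34000348-34000547 (minus strand, *H2-K1*), chr17:35262894-35263093 (plus strand, *H2-D1*), chr2:122147487-122147686 (plus strand, *B2m*) and chr17:34187356-34187555 (plus strand, *Tap1*).
H2-K1: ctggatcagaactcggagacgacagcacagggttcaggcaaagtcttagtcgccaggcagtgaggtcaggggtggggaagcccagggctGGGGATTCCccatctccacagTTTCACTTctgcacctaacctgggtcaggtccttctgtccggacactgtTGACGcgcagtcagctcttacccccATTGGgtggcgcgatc
H2-D1: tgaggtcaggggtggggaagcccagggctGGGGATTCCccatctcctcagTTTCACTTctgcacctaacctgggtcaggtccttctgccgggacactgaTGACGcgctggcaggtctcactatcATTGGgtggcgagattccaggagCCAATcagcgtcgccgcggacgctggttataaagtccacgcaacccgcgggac
B2m: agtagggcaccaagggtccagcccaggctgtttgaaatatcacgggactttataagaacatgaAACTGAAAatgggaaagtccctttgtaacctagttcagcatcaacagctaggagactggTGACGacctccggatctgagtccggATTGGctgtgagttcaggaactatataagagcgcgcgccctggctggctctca
Tap1: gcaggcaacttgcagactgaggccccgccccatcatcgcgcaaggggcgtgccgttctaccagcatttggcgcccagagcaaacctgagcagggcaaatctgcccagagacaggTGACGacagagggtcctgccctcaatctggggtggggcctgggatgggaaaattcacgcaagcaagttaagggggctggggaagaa

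The upstream stretches of *H2-K1* and *H2-D1* held the 4 motifs in the same order. In both, the first base of the IRF core lay 49 bases before that of the X2 core, and the X2 core 25 bases before the Y core. In *B2m* the X2 and Y cores were also 25 bases apart and the IRF core lay 59 bases before the X2 core, but the κB element did not match. A local alignment of the windows of *H2-K1* and *H2-D1* had 90.4% identical bases over 228 columns. The windows of *Tap1* and *Psmb9*, which are read in opposite directions, shared 275 bases (chr17:34187306-34187580), so that the X2 core at chr17:34187470-34187474 and the Y core at chr17:34187334-34187338 are each 1 match counted for both genes. Among the 8 windows, 3 held the IRF core, 5 the X2 core, 6 the Y core and 2 the κB element, as did 23.9%, 20.8%, 37.4% and 0.25% of all 32851 promoter windows. The IRF, X2 and Y cores together were in 1.59% of all windows. None of the 4 motifs was in the windows of *Psmb8* and *Psmb10*, and the RefSeq starts of *H2-D1*, *Psmb8*, *Psmb9* and *Tapbp* were 364, 474, 434 and 3579 bases from the 5′ end of the GENCODE gene. A match is only a match of letters, and the data hold no binding measurement.

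The question was whether overexpression of Ezh2-Y726D changed the level of these genes after ONC. All 10 were lower in the Ezh2-Y726D libraries than in the GFP libraries at an adjusted P under 0.05 in edgeR's quasi-likelihood test, against 13.6% of all genes tested. None was higher, whereas 13.9% of all genes were. The count of higher genes was also 0 at an unadjusted P under 0.05 and with DESeq2, which called all 10 lower. Log2 fold changes ran from −0.67 to −0.33 with a median of −0.46, and the median over all genes tested was 0.0019. In each of the 10 genes all 3 Ezh2-Y726D libraries lay below all 3 GFP libraries, which held for 18.9% of all genes. Summed over the 10 genes, the level was 2326, 2282 and 2319 CPM in the GFP libraries and 1688, 1719 and 1740 CPM in the Ezh2-Y726D libraries, which is 74.3% of the GFP mean. In these bulk libraries, fewer cells that carry the transcripts and less RNA per cell cannot be told apart.

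**Figure D1:**
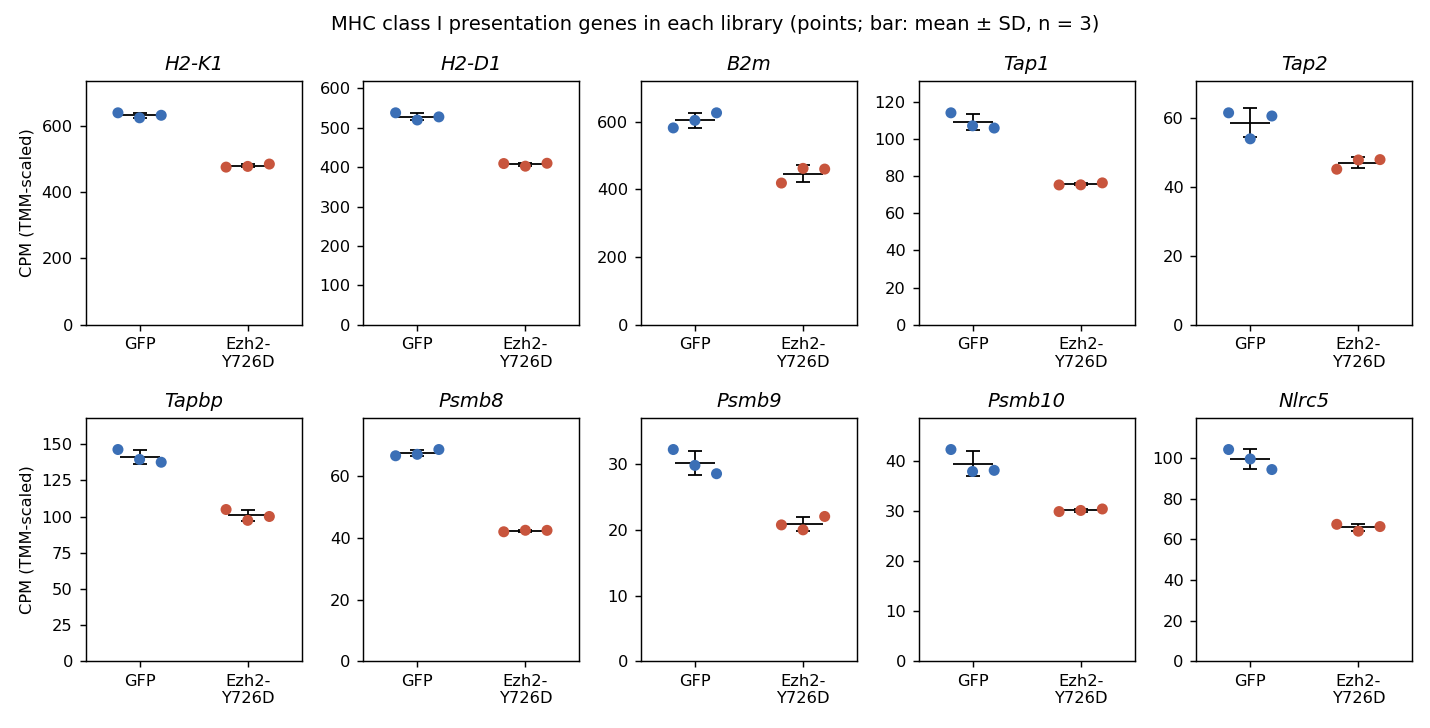
Level of each of the 10 class I presentation genes in CPM of the TMM-scaled library, on linear axes from 0, with 1 point per library and the mean ± SD of 3 libraries per group. In every panel the 3 Ezh2-Y726D points lie below the 3 GFP points, with the smallest gap in *Tap2*.

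*H2-K1* (chr17:33996017-34000347, minus strand of GRCm38) and *H2-D1* (chr17:35262730-35267499, plus strand) encode the classical heavy chains K and D that hold the peptide. *H2-K1* was at 639, 624 and 631 CPM in GFP replicates 1 to 3 and at 475, 477 and 484 CPM in Ezh2-Y726D replicates 1 to 3. The groups did not overlap, and the libraries of a group lay within a few percent of each other. The log2 fold change was −0.40 ± 0.037 (SE, adjusted P = 2e-09, edgeR). *H2-D1* measured 538, 520 and 528 CPM with GFP against 409, 403 and 410 CPM with Ezh2-Y726D. Its log2 fold change was −0.38 ± 0.038 (adjusted P = 6.85e-09, edgeR). The heavy chains kept nearly the same proportion to each other in every library. The ratio of *H2-D1* to *H2-K1* counts was 0.842, 0.834 and 0.836 in the GFP libraries and 0.861, 0.844 and 0.847 in the Ezh2-Y726D libraries, a difference of 0.023 on the log2 scale. It was slightly higher in every Ezh2-Y726D library than in every GFP library, which was not tested. Heavy chain genes are near-identical in places, and 9.63% of the distinct 50-base stretches of *H2-K1* and 12.8% of those of *H2-D1* also occur in other genes, so that a part of their reads could be placed on a relative.

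*B2m* (chr2:122147686-122153083, plus strand) encodes β2-microglobulin, the common light chain without which class I molecules do not reach the cell surface. It measured 582, 604 and 626 CPM with GFP against 419, 462 and 460 CPM with Ezh2-Y726D. The highest Ezh2-Y726D library was thus well below the lowest GFP library, and the log2 fold change was −0.43 ± 0.043 (adjusted P = 5.36e-09, edgeR). The ratio of *H2-K1* to *B2m* counts was 1.10, 1.03 and 1.01 in the GFP libraries and 1.13, 1.03 and 1.05 in the Ezh2-Y726D libraries. These ratios overlapped between the groups, so that no shift between heavy and light chain was seen beyond the spread of the libraries. No 50-base stretch of *B2m* occurs in another annotated gene.

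*Tap1* (chr17:34187553-34197225) and *Tap2* (chr17:34203527-34216321) encode the subunits of the peptide transporter, and *Tapbp* (chr17:33915899-33929292) encodes tapasin; all lie on the plus strand. *Tap1* measured 114, 107 and 106 CPM with GFP against 75.3, 75.4 and 76.4 CPM with Ezh2-Y726D, with a log2 fold change of −0.54 ± 0.045 (adjusted P = 1.77e-10, edgeR). *Tap2* measured 61.5, 53.9 and 60.5 CPM with GFP against 45.1, 47.8 and 47.9 CPM with Ezh2-Y726D. It had the narrowest gap between the groups and the smallest log2 fold change of the 10 genes, −0.33 ± 0.056 (adjusted P = 3.01e-05, edgeR). The ratio of *Tap1* to *Tap2* counts was 1.86, 1.99 and 1.75 in the GFP libraries and 1.67, 1.58 and 1.60 in the Ezh2-Y726D libraries. It did not overlap between the groups and differed by −0.21 on the log2 scale, which was not tested. *Tapbp* measured 146, 139 and 137 CPM with GFP against 105, 97.4 and 100.05 CPM with Ezh2-Y726D, with a log2 fold change of −0.49 ± 0.043 (adjusted P = 4.7e-10, edgeR). On the opposite strand, annotated exons of other genes cover 18.5% of the exonic bases of *Tap2*, 24.9% of those of *Tapbp* and 3.87% of those of *Tap1*. Whether counting used the strand is not given in the sources used here, so that reads from these genes and their antisense partners may be mixed.

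*Psmb8* (chr17:34197721-34201454, plus strand), *Psmb9* (chr17:34181987-34187764, minus strand) and *Psmb10* (chr8:105935735-105938444, minus strand) encode the catalytic subunits of the immunoproteasome, which replace the constitutive subunits encoded by *Psmb5*, *Psmb6* and *Psmb7* and favour peptides that fit class I molecules. *Psmb8* measured 66.5, 66.9 and 68.5 CPM with GFP against 41.9, 42.4 and 42.4 CPM with Ezh2-Y726D. The libraries of a group lay close together, and the log2 fold change of −0.67 ± 0.051 was the largest of the 10 genes (adjusted P = 4.07e-11, edgeR). *Psmb9* measured 32.2, 29.8 and 28.5 CPM with GFP against 20.7, 19.995 and 22.03 CPM with Ezh2-Y726D, with a log2 fold change of −0.56 ± 0.068 (adjusted P = 2.24e-07, edgeR). *Psmb10* measured 42.3, 37.9 and 38.1 CPM with GFP against 29.9, 30.1 and 30.4 CPM with Ezh2-Y726D, with a log2 fold change of −0.42 ± 0.061 (adjusted P = 3.62e-06, edgeR). The exons of *Psmb8* overlap those of Gm20496 on the opposite strand over 14.7% of their bases.

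The constitutive counterparts moved less. *Psmb6* fell by 0.16 on the log2 scale (adjusted P = 0.0183, edgeR), a call that was lost with DESeq2 (adjusted P = 0.0845), without GFP replicate 1 (adjusted P = 0.159), without Ezh2-Y726D replicate 1 (adjusted P = 0.0587) and without Ezh2-Y726D replicate 3 (adjusted P = 0.0996). *Psmb5* had a log2 fold change of 0.047 ± 0.085 (adjusted P = 0.777, edgeR) and *Psmb7* one of −0.038 ± 0.057 (adjusted P = 0.695, edgeR). Ratios of an immunoproteasome subunit to its counterpart were compared within each library, where the scaling between libraries plays no part. The ratio of *Psmb8* to *Psmb5* counts was 4.59, 4.90 and 5.36 in the GFP libraries and 2.92, 3.00 and 2.87 in the Ezh2-Y726D libraries, a difference of −0.75 on the log2 scale. The ratio of *Psmb9* to *Psmb6* was 0.442, 0.418 and 0.423 in the GFP libraries and 0.332, 0.299 and 0.355 in the Ezh2-Y726D libraries, a difference of −0.38. The ratio of *Psmb10* to *Psmb7* was 0.691, 0.558 and 0.641 in the GFP libraries and 0.470, 0.476 and 0.538 in the Ezh2-Y726D libraries, a difference of −0.35. All 3 ratios were lower in every Ezh2-Y726D library than in every GFP library. Each gave P = 0.1 in a 2-sided exact permutation test, also after adjustment over the 3 pairs, which is the smallest value that 3 against 3 libraries allow. The ratio with *Psmb5* is uncertain in level, since 54.1% of the 50-base stretches of *Psmb5* also occur in other genes, among them a *Psmb5* pseudogene.

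**Figure D2:**
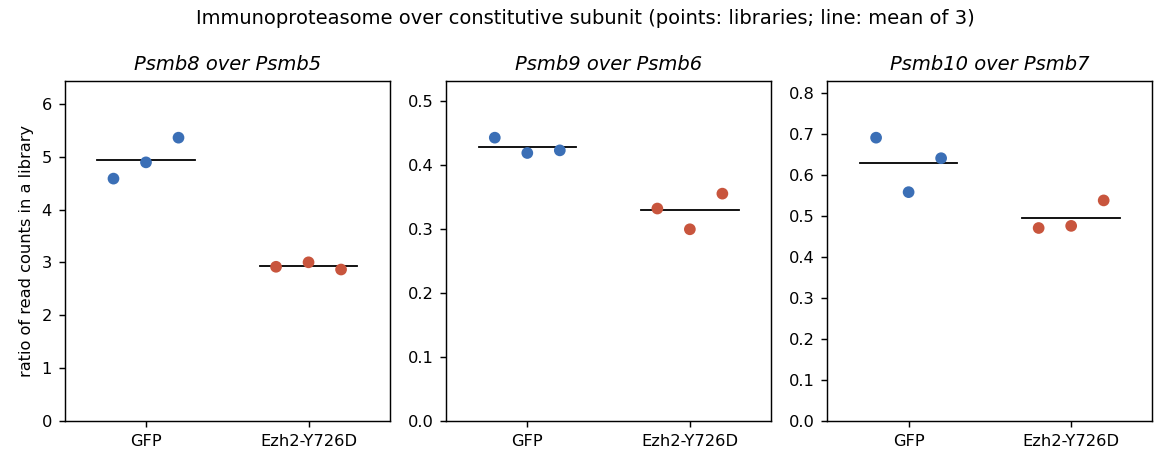
Ratio of read counts of each immunoproteasome subunit to its constitutive counterpart within a library, on linear axes from 0, with 1 point per library and a line at the mean of each group of 3. For every pair the 3 Ezh2-Y726D libraries lie below the 3 GFP libraries, from 4.59 to 5.36 down to 2.87 to 3.00 for *Psmb8* over *Psmb5*.

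*Nlrc5* (chr8:94434356-94527272, plus strand) encodes the transactivator of class I genes. It measured 104, 99.6 and 94.4 CPM with GFP against 67.4, 64.1 and 66.3 CPM with Ezh2-Y726D. The groups did not overlap, and the log2 fold change was −0.61 ± 0.047 (adjusted P = 6.26e-11, edgeR). *Nlrc5* and *Psmb8* were the 2 genes of the 10 that met the threshold for DEGs, an adjusted P under 0.05 with a fold change over 1.5, a threshold that 5.5% of all genes tested met in this direction. Without GFP replicate 1 only *Psmb8* met it, and without Ezh2-Y726D replicate 3 *Psmb9* met it too. The means of the other 8 genes with Ezh2-Y726D were 69.3% to 80.0% of the GFP mean.

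Per kb of exonic length, which allows levels of different genes to be compared, *B2m* was the most abundant of the 10 with a mean of 702 ± 25.9 CPM per kb in the GFP libraries (SD, n = 3), followed by *H2-K1* at 215 ± 2.6 and *H2-D1* at 205 ± 3.5 CPM per kb. *Tapbp* (38.9 CPM per kb) and *Psmb10* (23.1) came next, then *Tap1* and *Psmb8* (both 19.9), *Tap2* (15.5), *Nlrc5* (11.7) and *Psmb9* (8.24). The ranges of *Tap1* and *Psmb8* overlapped, so that their order is not resolved, and those of all other neighbours were apart. The order of the means was the same in the Ezh2-Y726D libraries, from *B2m* at 520 to *Psmb9* at 5.72 CPM per kb. There the ranges of *Psmb8* (12.4 to 12.5) and *Tap2* (11.9 to 12.7) overlapped and the others did not.

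Other genes of the pathway were taken as 4 lists with 58 genes tested, of which 28 were lower and none higher at an adjusted P under 0.05 in edgeR's test, beside 13.6% lower and 13.9% higher of all genes. None was higher at an unadjusted P under 0.05 or with DESeq2. The number of lower genes was 16 with DESeq2 and 16 without GFP replicate 1, fits in which 1648 and 1853 of all genes were lower, against 2463 in the main test. Of the 58, 3 were DEGs in this direction, a share near the 5.5% of all genes. Counts per list are given as a description without a test. With DESeq2 they were 4 heavy chains and class I-like molecules, 1 gene of loading and trimming, 3 proteasome genes and 8 regulators, against 8, 2, 6 and 12 with edgeR.

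Among the other heavy chains and class I-like molecules, 19 of 21 listed genes were in the table and 14 passed the filter, of which 8 were lower and 6 did not pass the test, with a median log2 fold change of −0.29. *H2-T24* measured 17.7, 20.8 and 21.9 CPM with GFP against 10.7, 10.6 and 9.46 CPM with Ezh2-Y726D, and its log2 fold change of −0.92 ± 0.093 was larger than that of any of the 10 presentation genes (adjusted P = 7.94e-09, edgeR). *H2-T23*, which encodes Qa-1, the ligand of NKG2 receptors on NK cells, was at 110, 116 and 114 CPM and at 78.7, 76.6 and 80.0 CPM, with a log2 fold change of −0.52 ± 0.044 (adjusted P = 2.25e-10, edgeR). *H2-M3*, which presents formylated peptides, had a log2 fold change of −0.38 (adjusted P = 0.00184, edgeR). *H2-T10* had one of −0.68 (adjusted P = 0.0065, edgeR) at only 1.9 to 3.8 CPM. The call of *H2-M3* was lost without GFP replicate 1 (adjusted P = 0.132), as was that of *H2-T10* (adjusted P = 0.0554), which was lost with DESeq2 as well (adjusted P = 0.0721). Of the 50-base stretches of *H2-T10*, 32.9% also occur in other genes.

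Of the 6 genes of peptide loading and trimming, 2 were lower and 4 did not pass, with a median of −0.090. *Erap1*, the aminopeptidase that trims peptides in the endoplasmic reticulum, measured 59.0, 60.9 and 68.0 CPM with GFP against 46.8, 51.9 and 52.9 CPM with Ezh2-Y726D (log2 fold change −0.29 ± 0.059, adjusted P = 0.000382, edgeR). *Tapbpl*, a tapasin relative that edits peptides, fell by 0.22 (adjusted P = 0.0267, edgeR), a call that was lost with DESeq2 (adjusted P = 0.118), without GFP replicate 2 or 3 (adjusted P = 0.0576 and 0.115) and without Ezh2-Y726D replicate 3 (adjusted P = 0.124). The general chaperones *Calr*, *Canx* and *Pdia3* were among the genes that did not pass.

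Of the 19 genes of the proteasome core and its activators, 6 were lower and 13 did not pass, with a median of −0.071. *Psme2* and *Psme1*, which encode the interferon-induced PA28 activator, had log2 fold changes of −0.49 ± 0.062 and −0.26 ± 0.049 (adjusted P = 4.82e-07 and 0.000113, edgeR). *Psme2* measured 42.9, 38.7 and 45.3 CPM with GFP against 31.5, 29.1 and 29.9 CPM with Ezh2-Y726D, close to the change of the immunoproteasome subunits. The core subunits *Psmb1* and *Psma7* fell by 0.19 and 0.17 (adjusted P = 0.0064 and 0.0123, edgeR), and both calls were lost without GFP replicate 1 (adjusted P = 0.0718 and 0.0765). The call of *Psma7* was also lost with DESeq2 (adjusted P = 0.0607) and without Ezh2-Y726D replicate 2 (adjusted P = 0.0533).

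Of the 19 regulators, 12 were lower and 7 did not pass, with a median of −0.22. *Ciita*, the relative of *Nlrc5* that drives class II genes, measured 32.2, 31.1 and 31.0 CPM with GFP against 19.7, 20.1 and 20.8 CPM with Ezh2-Y726D (log2 fold change −0.65 ± 0.065, adjusted P = 5.58e-09, edgeR). *Ifngr1*, a chain of the interferon-γ receptor, fell by 0.57 (adjusted P = 1.81e-09, edgeR). *Stat2*, which carries the type I interferon signal, measured 86.6, 87.8 and 92.7 CPM with GFP against 63.3, 65.4 and 64.0 CPM with Ezh2-Y726D, a log2 fold change of −0.46 ± 0.047 (adjusted P = 7.74e-09, edgeR). *Irf1*, an interferon-induced activator of class I genes, was at 108, 108 and 114 CPM and at 80.3, 85.6 and 81.4 CPM, a log2 fold change of −0.41 ± 0.044 (adjusted P = 2.72e-08, edgeR). *Socs1*, an inhibitor of interferon signalling, fell by 0.55 (adjusted P = 0.00394, edgeR), but the GFP libraries spread from 4.8 to 8.5 CPM and leaving out GFP replicate 1 moved the value to −0.28 and ended the call (adjusted P = 0.355). The call was also lost with DESeq2 (adjusted P = 0.0993). *Rfx5*, *Rfxap* and *Rfxank*, which encode the RFX complex on the X box, had log2 fold changes of 0.095 ± 0.059, 0.12 ± 0.073 and −0.064 ± 0.074 (adjusted P = 0.257, 0.234 and 0.594, edgeR). Exons of other genes on the opposite strand cover 26.8% of the exonic bases of *Rfx5* and 33.8% of those of *Rfxank*, so their reads may be mixed too. Such exons also cover 27.1% of *H2-T10*, 11.8% of *Psmb7* and 11.5% of *Erap1*.

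**Figure D3:**
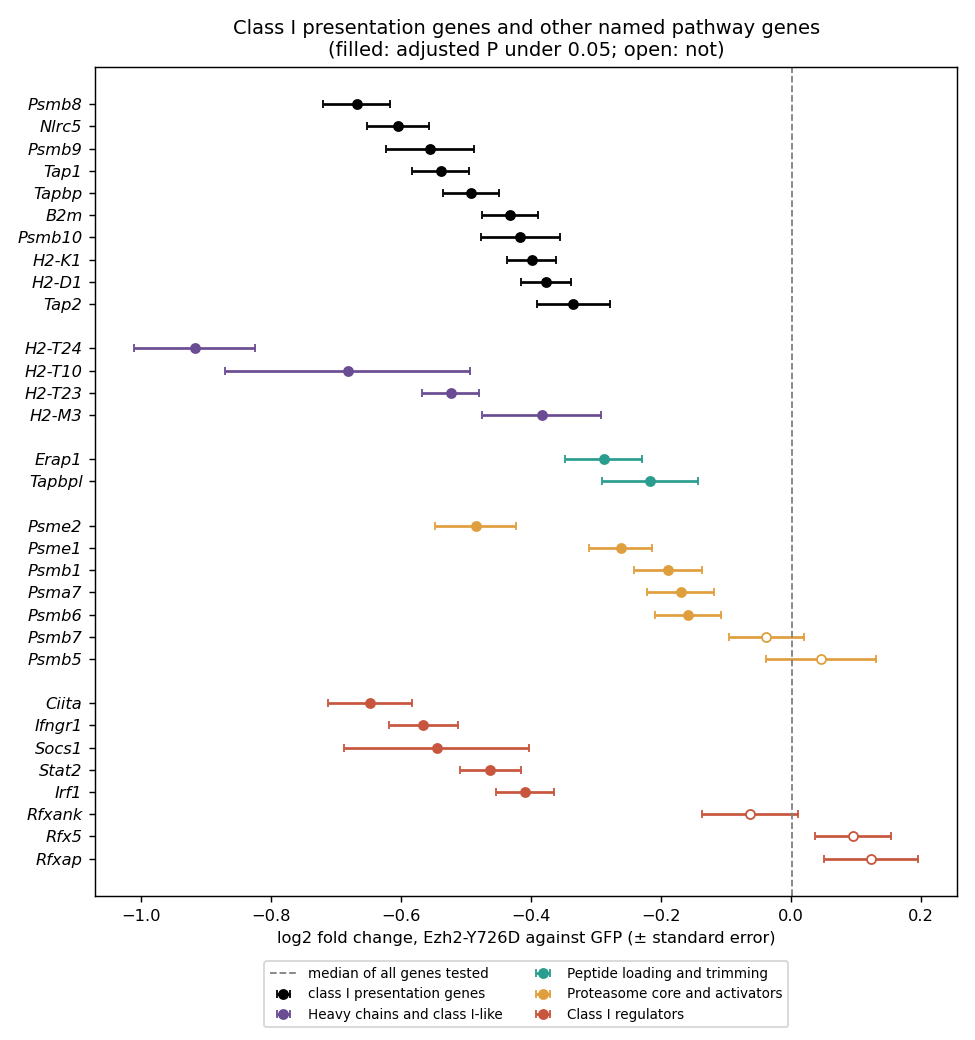
Log2 fold change of Ezh2-Y726D against GFP with its standard error for the 10 class I presentation genes and 21 other named pathway genes, grouped by list, with filled points for an adjusted P under 0.05 and a dashed line at the median of all genes tested. The 10 presentation genes lie between −0.67 and −0.33, whereas *Psmb5*, *Psmb7* and the 3 RFX genes lie near the line.

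The direction of these changes is relative to the bulk of the genes. When library totals were used in place of TMM factors, the median of all genes moved to 0.49, none of the 10 genes was called, and their log2 fold changes lay between −0.17 and 0.16. *H2-K1*, *H2-D1*, *B2m*, *Tap2*, *Tapbp* and *Psmb10* then had values above 0, and *Tap1*, *Psmb8*, *Psmb9* and *Nlrc5* below 0. Relative to the median of all genes, all 10 were lower by 0.33 to 0.66 under this scaling and by 0.34 to 0.67 with TMM factors. A change of scaling moves all genes by nearly the same amount, so these distances had to be alike and are no separate check. Once CT010467.1 was removed from the totals, the median was −0.020 and all 10 genes were called lower.

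**Figure D4:**
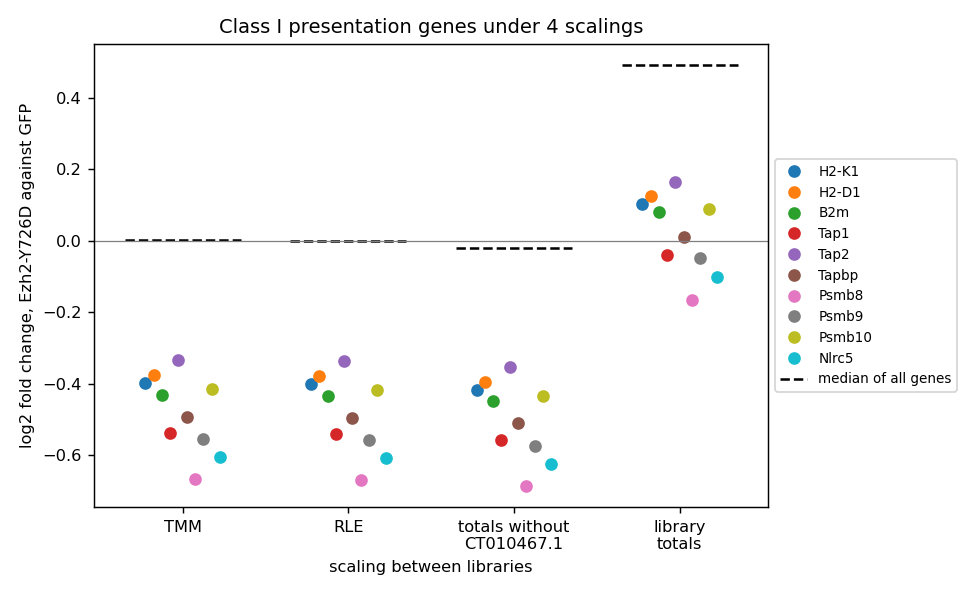
Log2 fold change of each of the 10 genes under 4 scalings between libraries: TMM factors, RLE size factors, library totals without the rRNA gene CT010467.1, and library totals, with a dashed line at the median of all genes tested. All points lie below the dashed line in each column, although the line stands at 0.49 in the last. A change of scaling moves points and line nearly alike, so the columns are not separate checks of this distance.

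Immune cell markers moved in the same direction, and their counts stand beside the 13.6% lower and 13.9% higher of all genes. The summed level of 9 markers of phagocytes and leukocytes was 947 to 1037 CPM in the GFP libraries and 305 to 354 CPM in the Ezh2-Y726D libraries, 33.4% of the GFP mean, and 8 of the 9 were lower at an adjusted P under 0.05 in the same test. *Lyz2* and *Gpnmb* made up 66.0% of this sum with GFP, and the other 7 markers stood at 54.7% of the GFP mean. *Ptprc*, which encodes the pan-leukocyte antigen CD45, was at 137, 154 and 140 CPM and at 78.2, 87.6 and 95.5 CPM. All 11 T cell markers were lower, with a sum of 170 to 173 CPM in the GFP libraries and 96.9 to 105 CPM in the Ezh2-Y726D libraries, and 4 of 6 NK cell markers and 2 of 4 tested B cell markers were lower, with sums of 61.2% and 54.8% of the GFP mean. The 7 microglia markers were mixed, with 3 lower and 2 higher and a sum of 400 to 450 CPM against 316 to 371 CPM. All 20 interferon-induced genes were lower, with a sum of 1179 to 1254 CPM against 834 to 845 CPM, 69.7% of the GFP mean. The share of these cells and of the interferon response in the lower class I levels was not tested.

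The other marker lists are read against the same shares. All 6 pericyte markers were lower (77.0% of the GFP sum), and 3 of 7 endothelial markers were (94.0%). *Kdr* and *Flt1* made up 96.8% of the endothelial sum, and the other 5 markers stood at 78.0%. Among retinal neurons and glia, the sums stood at 97.0% for RGC markers (1 lower and 2 higher of 12), 95.1% for Müller glia markers (1 lower and 1 higher of 6), 82.4% for bipolar cell markers (5 lower and 1 higher of 6), 65.7% for cone markers (5 of 5 lower), 104% for rod markers (2 of 5 higher) and 161% for amacrine cell markers (6 of 6 tested higher). The counts of RGC and Müller glia markers were near those shares. *Thy1*, the gene of the sorting antigen CD90.2, was 1 of the 2 higher RGC markers. It measured 106, 111 and 99.7 CPM with GFP against 114, 122 and 112 CPM with Ezh2-Y726D (adjusted P = 0.0315, edgeR). No marker was at 0 in all libraries. The part of any of these shifts in the result was not tested.

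**Figure D5:**
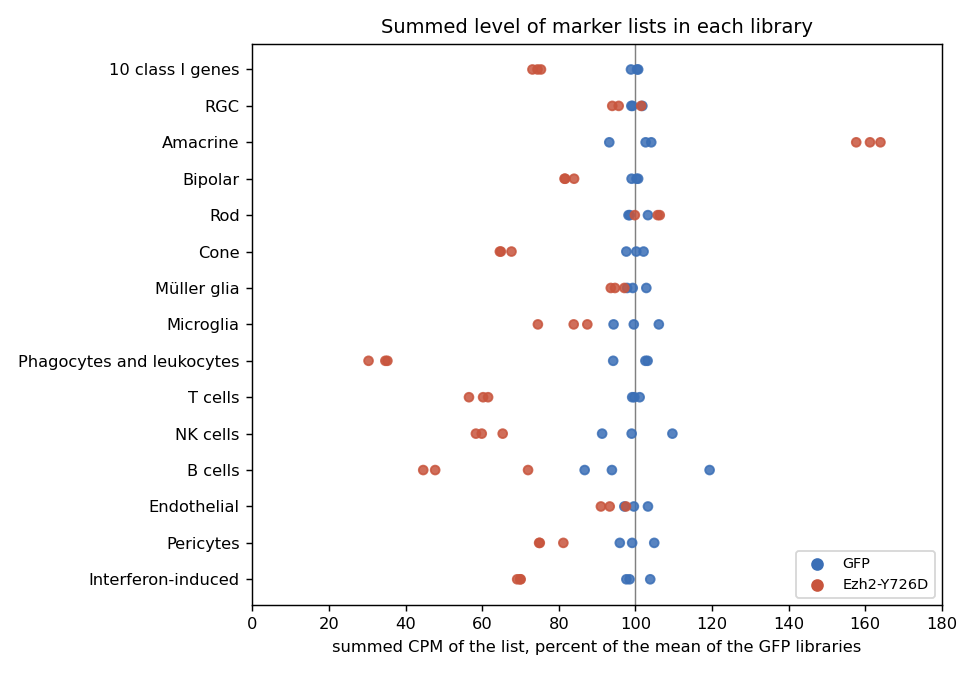
Summed CPM of the 10 class I presentation genes and of each marker list in every library, as a percent of the mean of the 3 GFP libraries, with 1 point per library. The Ezh2-Y726D libraries of the 10 genes average 74.3%. The nearest lists below and above are the interferon-induced genes (69.7%) and the pericyte markers (77.0%).

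The genes whose values over the 6 libraries were most like the mean of the 10, by Pearson's r of log2(CPM + 1) among 12092 genes outside the lists, were *Plcg2* (r = 0.9993), *Prex1* (0.9982), *Rasal3* (0.9981), *Ifi202b* (0.998) and *Ifi35* (0.9976). The 6 libraries fall into the study's groups, so that r describes mainly the step between the groups. *Plcg2* measured 23.78, 22.2 and 22.4 CPM with GFP against 15.7, 15.8 and 16.3 CPM with Ezh2-Y726D. As background, *Plcg2*, *Prex1* and *Rasal3* encode signalling proteins, and *Ifi202b* and *Ifi35* are interferon-induced genes. Which cells these transcripts came from was not tested.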

How the data were processed

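The authors deposited 1 table of whole-number read counts per gene for the 6 libraries, without normalization. The submitters' processing notes name STAR 2.7.0d and GRCm38, and the counting tool, annotation and strand setting are not given in the sources used here. Libraries were made from total RNA with a stranded kit. From the counts, CPM of the TMM-scaled library and edgeR's quasi-likelihood test (edgeR 4.0.16, R 4.3.3) were computed over all 6 libraries, with the default filter (10 counts, total 15) and P values adjusted by Benjamini-Hochberg for the 18138 genes kept. Standard errors are the absolute log2 fold change over the square root of the F statistic. Symbols were found for 32325 of 32371 identifiers, and coordinates, exonic length and overlap are from GENCODE vM21 on GRCm38. Promoter sequences are from RefSeq. The fit was tested on simulated data.

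The members and lists were chosen with earlier results of these data known. Some items are not reported here and were left out of the lists. The named pathway genes are the constitutive subunits, *Psme1*, *Psme2*, *Irf1* and the RFX genes, and up to 4 genes of each list with the largest change at an adjusted P under 0.05. *Calr*, *Canx*, *Pdia3*, *Ptprc*, *Lyz2*, *Gpnmb*, *Kdr*, *Flt1* and, for its marker values, *Thy1* were named after their values were seen. Alternatives were RLE size factors, library totals with and without CT010467.1, DESeq2 1.42.0, other filters, the replicate number as a block, the DEG threshold, leaving out each library and, chosen after seeing the data, leaving out GFP replicates 2 and 3 together.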

Additional observations from a re-analysis of the deposited data

How the results depend on the processing

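All 10 class I presentation genes were called lower with RLE size factors, library totals without CT010467.1, DESeq2, a filter of 10 counts in each library or none, without each single library (adjusted P up to 0.00241, for *Tap2*) and, chosen after seeing the data, without GFP replicates 2 and 3. With library totals 19 genes were lower and 46 higher of all genes, and 0 of the 10 genes and 0 of the other pathway genes were lower. The log2 fold changes were then 0.10 (*H2-K1*), 0.12 (*H2-D1*), 0.081 (*B2m*), −0.039 (*Tap1*), 0.16 (*Tap2*), 0.0090 (*Tapbp*), −0.17 (*Psmb8*), −0.050 (*Psmb9*), 0.089 (*Psmb10*) and −0.10 (*Nlrc5*). Among the named pathway genes that were called lower, the values above 0 were 0.35 (*Psmb6*), 0.24 (*Psme1*), 0.014 (*Psme2*), 0.095 (*Irf1*), 0.042 (*Stat2*), 0.12 (*H2-M3*), 0.21 (*Erap1*), 0.27 (*Tapbpl*), 0.31 (*Psmb1*) and 0.33 (*Psma7*). Leaving out CT010467.1 from the totals restored the calls. The other pathway genes numbered 16 with DESeq2, and 16 to 26 without each single library, with the lowest number without GFP replicate 1, and the cause was not tested. With the DEG threshold, 2 of the 10 genes and 3 pathway genes remained. The replicate numbers do not pair the libraries by their labels, and the deviations of libraries with the same number correlated with r = 0.14, 0.051 and 0.039, although every library correlated best with its own number. With the replicate number as a block, 2547 genes were lower and 2675 higher, 10 of the 10 genes and 30 of the other pathway genes were lower, and the log2 fold changes of the 10 genes ran from −0.67 to −0.34. Paired by number, the ratios of subunits gave P = 0.25 in an exact sign-flip test, the smallest value that 3 pairs allow. GFP replicates 2 and 3 hold 5745352 and 4460732 counts without CT010467.1, against at least 15280377 in the other 4 libraries, which limits genes with few counts such as *H2-T10* and *Socs1*.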
